A study of Mus musculus with 9 samples.

Results

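The cytosolic heat shock genes described here are Hspa1a, Hspa1b, Hspa8, Hsph1, Hsp90aa1, Dnajb1, Hspb1, Hspb8, Cryab and Bag3. They were chosen by symbol for what their proteins do, though with earlier results of these data known. They are 10 of the 53465 genes in the count table. All 10 had enough counts to be among the 14088 genes tested. RNA came from mouse adult fibroblasts and was sequenced in 9 libraries, 3 of each group. The groups were controls, cells given DPI for 24 h and cells given DPI for 72 h. DPI is read here as diphenyleneiodonium, an inhibitor of enzymes that carry flavin, from the title's theme of FMN cofactor targeting. The control label names neither a vehicle nor a collection time, and the labels give no DPI dose, strain, sex or age, so DPI cannot be told apart from time in culture. Nothing in the labels ties libraries to separate cultures or animals, so every p-value measures only the spread among libraries, which could be technical in part.

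Heat shock proteins of the cytosol keep other proteins folded. HSP70 chaperones (Hspa1a, Hspa1b and the constitutive Hspa8) bind unfolded stretches in cycles driven by ATP. J-domain proteins such as Dnajb1 bring clients and start ATP hydrolysis, while Hsph1, an HSP110, and Bag3 release ADP and the client. Hsp90aa1, the inducible cytosolic HSP90, takes over clients such as kinases and steroid receptors. The small heat shock proteins Hspb1, Hspb8 and Cryab hold unfolding proteins without ATP, and Bag3 joins Hspb8 to HSP70 in the selective autophagy of damaged proteins. The transcription factor HSF1 drives many of these genes under proteotoxic stress by binding heat shock elements, which are arrays of inverted GAA units.

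The promoters are shown because they are where the heat shock elements that HSF1 is known to bind were looked for. RefSeq's table for GRCm38.p6 matched 7 of the 10 genes by symbol, namely Hspa1a, Hspa1b, Hsph1, Dnajb1, Hspb1, Hspb8 and Bag3. Hspa8, Hsp90aa1 and Cryab were not shown. Each window holds the 250 bases before an annotated transcription start and the 50 bases from it on, written 5′ to 3′ on the gene's strand. The windows are chr17:34972107-34972406 (minus strand) for Hspa1a, chr17:34959189-34959488 (minus) for Hspa1b, chr5:149636266-149636565 (minus) for Hsph1, chr5:135887669-135887968 (plus) for Hspb1, chr5:116422815-116423114 (minus) for Hspb8 and chr7:128523333-128523632 (plus) for Bag3. Capitals mark the match to GAANNTTCNNGAA, read on both strands, in Hsph1, and the match to GAANNTTC in the other windows.
Hspa1a: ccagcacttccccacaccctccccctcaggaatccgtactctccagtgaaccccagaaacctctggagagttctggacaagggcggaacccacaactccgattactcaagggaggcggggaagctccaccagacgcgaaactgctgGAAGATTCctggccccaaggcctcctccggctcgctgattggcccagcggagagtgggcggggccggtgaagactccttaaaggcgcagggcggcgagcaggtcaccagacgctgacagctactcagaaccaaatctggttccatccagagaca
Hspa1b: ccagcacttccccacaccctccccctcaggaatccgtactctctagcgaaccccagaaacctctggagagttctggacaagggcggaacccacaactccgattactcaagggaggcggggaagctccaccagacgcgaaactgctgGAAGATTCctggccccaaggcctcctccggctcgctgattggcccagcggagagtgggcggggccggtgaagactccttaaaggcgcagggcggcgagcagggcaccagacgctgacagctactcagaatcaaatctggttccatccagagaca
Hsph1: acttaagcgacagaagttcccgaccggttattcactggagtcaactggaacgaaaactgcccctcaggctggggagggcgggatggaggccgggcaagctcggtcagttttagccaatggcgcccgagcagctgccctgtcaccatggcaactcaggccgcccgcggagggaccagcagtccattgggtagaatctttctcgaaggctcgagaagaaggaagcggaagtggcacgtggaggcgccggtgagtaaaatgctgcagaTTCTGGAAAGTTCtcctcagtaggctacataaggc
Hspb1: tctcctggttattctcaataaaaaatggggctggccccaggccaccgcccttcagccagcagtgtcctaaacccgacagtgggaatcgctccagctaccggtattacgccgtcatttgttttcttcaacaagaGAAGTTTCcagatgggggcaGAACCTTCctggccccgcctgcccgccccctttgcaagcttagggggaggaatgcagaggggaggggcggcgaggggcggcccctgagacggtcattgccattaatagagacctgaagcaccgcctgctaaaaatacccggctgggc
Hspb8: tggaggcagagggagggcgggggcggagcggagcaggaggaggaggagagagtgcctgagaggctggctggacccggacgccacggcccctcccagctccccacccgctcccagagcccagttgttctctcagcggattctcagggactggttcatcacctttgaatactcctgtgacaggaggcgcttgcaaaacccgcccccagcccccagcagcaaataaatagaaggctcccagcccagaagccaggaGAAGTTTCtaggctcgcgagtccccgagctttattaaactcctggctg
Bag3: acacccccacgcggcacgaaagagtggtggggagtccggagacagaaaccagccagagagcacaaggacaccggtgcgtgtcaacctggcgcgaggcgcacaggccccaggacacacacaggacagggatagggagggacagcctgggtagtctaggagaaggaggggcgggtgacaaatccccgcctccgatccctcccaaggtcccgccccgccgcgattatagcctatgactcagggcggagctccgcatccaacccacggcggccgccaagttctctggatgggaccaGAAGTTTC

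The array of 3 units, GAANNTTCNNGAA, was found in Hsph1 alone among the 7 genes, 15 bases after the transcription start in the window shown. It was found in 0.662% of the 27025 genes of the table, counting a gene when any of its windows holds the letters. The array contains both pairs searched, GAANNTTC and TTCNNGAA, each of which reads the same on both strands. GAANNTTC was found in 6 of the 7 genes and in 9.04% of all genes of the table. TTCNNGAA was found in 1 of the 7 genes, Hsph1, and in 9.6% of all genes of the table. The GAANNTTC matches began 104 bases before the start in Hspa1a and Hspa1b and 117 and 97 bases before it in Hspb1. They began 2 bases after the start in Hspb8, 20 bases after it in Hsph1 and 42 bases after it in Bag3. Hsph1 has a second annotated start, from which the array lies at 36 bases and its GAANNTTC at 41 bases, and it also holds a TTCNNGAA, TTCTCGAA, 54 bases before the start shown or 33 bases before the other. None of these letters was in either Dnajb1 window. A match is a description of the letters and not a measured binding site. The Hspa1a and Hspa1b windows were identical at 296 of 300 bases (98.7%). Counted from 1 at the window's 5′ end, the changes going from Hspa1b to Hspa1a were T44C, C47T, G249T and T276C, none of them inside the match.

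Library totals ranged from 15292736 to 17923656 counts, and control replicate 2 stood apart from the other libraries. The longest 25% of genes by exonic length lay there at a median of -0.20 on the log2 scale from their means over all libraries, and the shortest 25% at 0.20, whereas all other libraries lay within -0.021 and 0.0452. Calls that change without that library are given beside each result. The fibroblast label was checked against 10 markers. Of these, 7 were at 1 CPM (counts scaled to the library total, for markers without TMM factors) or more in every library, but Thy1 was at 0 in 8 of 9 libraries and Lum was at 0.064 CPM or less. The summed markers ranged from 12700 to 13400 CPM at 24 h of DPI and from 10600 to 12300 CPM at 72 h, against 6710 to 8290 CPM in controls. At 72 h Col1a1, Col1a2 and Vim were above every control, whereas Fn1, Col3a1, Pdgfra, Pdgfrb and Dcn overlapped the controls. The part of this shift in the results was not tested. Cryab and Hspb8 are abundant in muscle, so 6 skeletal muscle markers were summed too. They reached 0.909 to 1.40 CPM at 24 h and 1.09 to 2.03 CPM at 72 h, against 1.45 to 2.07 CPM in controls, with Myog at 0 throughout.

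To compare genes with each other, TMM-normalised CPM was divided by exonic length in kb. This length merges all annotated exons of a gene and can exceed that of the transcripts the cells make, so the order holds for this length only. It was 7266 bases for Hsph1 and 1950 bases for Hspb8. In CPM without length, Hsph1 (275 in controls) was above Hspb8 (103). Hspa8 and Hsp90aa1 stood far above the other members in every group. Hspa8 averaged 1004 CPM per kb in controls, 761 at 24 h and 840.4 at 72 h. Hsp90aa1 averaged 526 CPM per kb in controls, 469 at 24 h and 468 at 72 h. Together these 2 genes supplied at least 88.7% of the members' counts in each library. Hspb8 followed at 53.0, 53.5 and 46.9 CPM per kb in controls, at 24 h and at 72 h, then Hsph1 at 37.8, 43.9 and 36.1 and Dnajb1 at 29.8, 31.5 and 29.3. Hspa1b, at 17.6, 21.8 and 16.9 CPM per kb, and Bag3, at 17.1, 19.2 and 17.8, overlapped in all 3 groups, and their order turned at 72 h. Hspb1 lay at 7.63, 5.72 and 5.54 CPM per kb and Cryab at 3.92, 1.54 and 4.38, and their ranges overlapped only in controls. Hspa1a was lowest, with 0.665, 0.883 and 0.811 CPM per kb. All other neighbours in this order had ranges that did not overlap in any group.

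**Figure D1:**
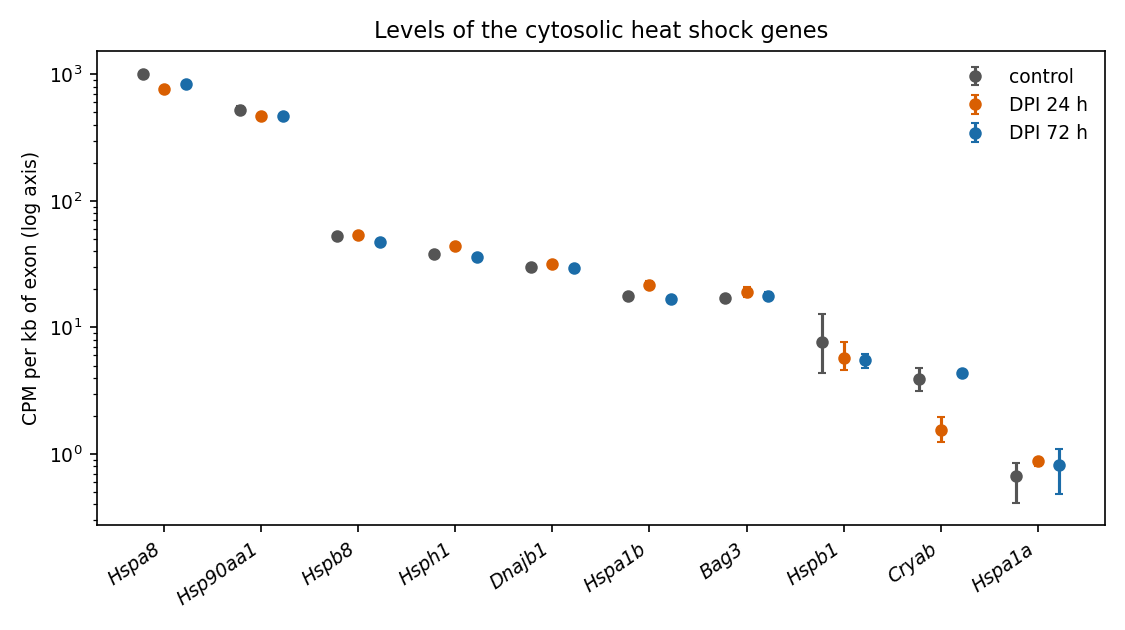
Mean level per gene in CPM per kb of exon on a log axis, with bars from the lowest to the highest of 3 libraries, for controls, DPI 24 h and DPI 72 h. Hspa8 and Hsp90aa1 sit above all other members and Hspa1a below them in each group.

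The sequences of some members are close to those of other genes, which bears on how reads were assigned. Of the 50-base windows in Hspa1a transcripts, 60.3% also occur in another gene, and 58.8% of all windows occur in Hspa1b, whose longest transcript is 86.6% identical to that of Hspa1a. For Hspa1b the share was 62.3%, for Hspb1 48.8%, all in Hsp25-ps1, for Hsp90aa1 47.5% (41.8% in Gm12346) and for Hspa8 38.6% (34.6% in Gm15459). Counts of these 5 genes are therefore uncertain. Hsph1, Hspb8, Cryab and Bag3 shared no such window and Dnajb1 shared 0.38%. Cryab shares 252 exonic bases with Hspb2 on the opposite strand, and Hspb2 had 10 counts over all libraries. Hspa1a shares 564 exonic bases with Gm20481 on the opposite strand, and whether the counting used strand is not given in the sources used here. Hspa8 shares 86, 86 and 90 exonic bases with Snord14c, Snord14d and Snord14e on its own strand, where a strand setting would not tell them apart.

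The comparison of 24 h of DPI with controls asked which of these transcripts differed after the shorter exposure. The inducible HSP70 gene Hspa1b and the HSP110 gene Hsph1 rose, by 1.24-fold and 1.16-fold. The constitutive HSP70 gene Hspa8, the HSP90 gene Hsp90aa1 and the small heat shock gene Cryab fell, to 0.758, 0.891 and 0.394 of the control level. Hspa1a, Dnajb1, Bag3, Hspb1 and Hspb8 did not pass the test (edgeR quasi-likelihood, adjusted p under 0.05 over all genes). Thus 2 of 10 members rose and 3 fell, beside 12.4% of all tested genes that rose and 12.3% that fell (24.7% in either direction). The members' median log2 change was 0.04, beside -0.01 over all genes, and their median size was 0.26, beside 0.22. Groups did not overlap for 4 members that were higher and 3 that were lower, beside 20.4% and 20.1% of all genes (40.5% in either direction).

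Among the HSP70 genes, Hspa1b (17:34956436-34959238, minus strand, GRCm38), which heat and proteotoxic stress are known to induce, had 64.7, 60.9 and 57.9 CPM at 24 h of DPI, against 47.4, 49.2 and 51.5 CPM in controls. Every treated library was above every control. The log2 change was 0.31 (SE 0.07, adjusted p = 0.00824 by edgeR). Its neighbouring paralogue Hspa1a (17:34969190-34972156, minus strand) had only 45, 45 and 42 counts at 24 h, against 20, 46 and 34 counts in controls. These groups overlapped, and its log2 change of 0.41 (SE 0.35, adjusted p = 0.448 by edgeR) had a 95% interval from 0.771-fold to 2.28-fold. Hspa8 (9:40800984-40810087, plus strand), the HSP70 that cells make without stress and that also uncoats clathrin vesicles, had 3260, 3293 and 3271 CPM at 24 h, against 4199, 4463 and 4292 CPM in controls. Its libraries at 24 h lay closer together than the controls and well below them. Hspa8 fell by 24.2% (log2 change -0.40, SE 0.04, adjusted p = 4.93e-05 by edgeR, 95% interval 0.713-fold to 0.806-fold). In bulk RNA a lower level in every cell and fewer cells at a high level cannot be told apart, here or for any gene below.

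Among the factors that work with HSP70, Hsph1 (5:149614287-149636376, minus strand), which exchanges nucleotide on HSP70 and helps it dissolve aggregates, had 318, 321 and 319 CPM at 24 h, against 275, 270.0 and 279 CPM in controls. The groups were narrow and did not overlap. Its log2 change was 0.22 (SE 0.05, adjusted p = 0.0103 by edgeR), and without a filter on low counts the adjusted p was 0.0511. Dnajb1 (8:83608193-83612653, plus strand), the stress-inducible J-domain partner, had 99.0, 99.9 and 103.5 CPM at 24 h, against 93.0, 98.4 and 95.5 CPM in controls. Every treated library was again above every control, by less than 1 CPM at the nearest, and the log2 change of 0.08 did not pass (adjusted p = 0.356 by edgeR). Its 95% interval ran from 0.969-fold to 1.15-fold. Bag3 (7:128523616-128546981, plus strand), the cochaperone that HSF1 induces, had 49.2, 53.2 and 44.9 CPM at 24 h, against 43.3, 44.7 and 43.5 CPM in controls. The log2 change of 0.16 (SE 0.08) did not pass (adjusted p = 0.147 by edgeR), with a 95% interval from 0.997-fold to 1.26-fold.

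Hsp90aa1 (12:110690605-110702728, minus strand) had 1862, 1849.8 and 1819.98 CPM at 24 h, against 1977, 2198 and 2034 CPM in controls. The groups did not overlap, and control replicate 2 was the highest library. The log2 change was -0.17 (SE 0.05, adjusted p = 0.0297 by edgeR). That call was close to the threshold. It was lost without DPI 24 h replicate 1 (adjusted p = 0.076), replicate 2 (0.084) or replicate 3 (0.0997) and without DPI 72 h replicate 3 (0.0509), while the log2 change stayed between -0.20 and -0.12 with any library left out.

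Of the 3 small heat shock genes, only Cryab passed the test at 24 h. Cryab (9:50751325-50756636, plus strand), which encodes alpha-B crystallin, had 2.87, 1.83 and 2.14 CPM at 24 h, against 4.64, 7.06 and 5.69 CPM in controls. These values rest on 47, 30 and 38 counts at 24 h, against 77, 128 and 89 counts in controls, and the groups did not overlap. Cryab fell by 60.6% (log2 change -1.35, SE 0.22, adjusted p = 0.00144 by edgeR, 95% interval 0.280-fold to 0.553-fold). Of all tested genes, 3.07% had a larger change in size. Without control replicate 2, the highest control, the log2 change was -1.18. The summed skeletal muscle markers were near the floor, at 0.909 to 1.40 CPM at 24 h against 1.45 to 2.07 CPM in controls. Of the 6, 0 were at 1 CPM or more in every library. Only Des, the marker shared with the smooth muscle list, passed the filter on low counts. Single markers differed: Acta1 had 0.061, 0.12 and 0.67 CPM at 24 h, against 0.49, 0.61 and 0.52 CPM in controls. Tnnt3 had 0.12, 0.24 and 0.28 CPM at 24 h, against 0.12, 0.22 and 0.065 CPM in controls. The 4 smooth muscle markers summed to 113 to 120 CPM at 24 h, against 77 to 89.2 CPM in controls, nearly all of it Smtn. The 4 neural and glial markers, mostly Tubb3 and with Sox10 at 0, summed to 57.3 to 70.1 CPM in controls, 44.7 to 45.8 CPM at 24 h and 89.3 to 95.3 CPM at 72 h. The part of these markers in the Cryab result was not tested. Hspb8 (5:116408491-116422864, minus strand), the Bag3 partner, had 108.4, 105.4 and 99.3 CPM at 24 h, against 101.6, 107.5 and 101.0 CPM in controls. The ranges overlapped widely, and the log2 change of 0.01 (adjusted p = 0.901 by edgeR) had a 95% interval from 0.917-fold to 1.11-fold. Hspb1 (5:135887919-135889563, plus strand), a heat-inducible gene in other cells, had 7.89, 4.99 and 4.79 CPM at 24 h, against 4.46, 13.2 and 5.95 CPM in controls. Control replicate 2 alone was over 10 CPM. Its log2 change was -0.42 (adjusted p = 0.43 by edgeR) and turned to 0.18 without that library, also not passing.

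**Figure D2:**
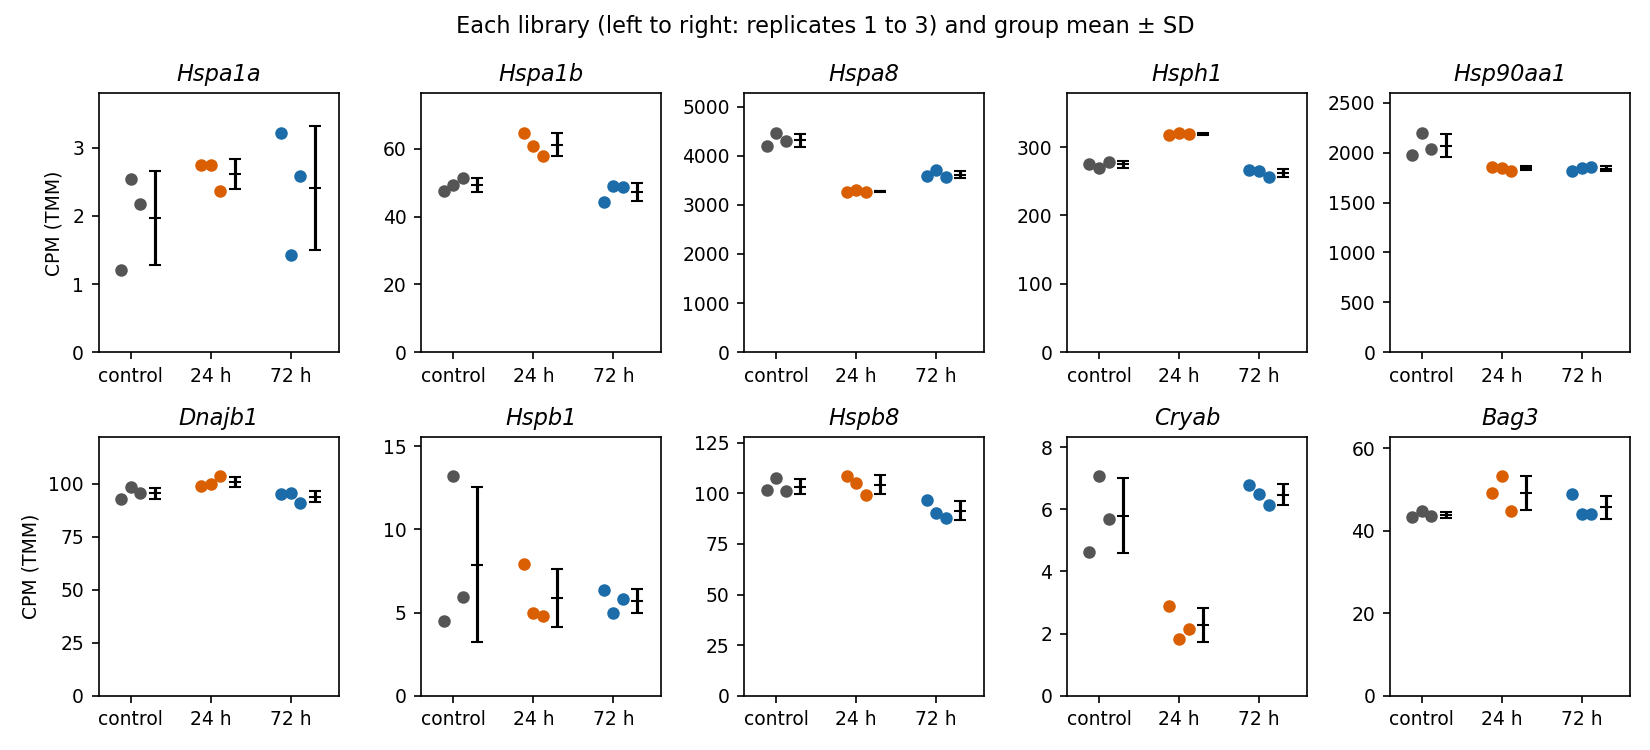
TMM-normalised CPM of each gene in each library, with 1 panel per gene, its own axis from 0 and the group mean ± SD for controls, DPI 24 h and DPI 72 h. Cryab and Hspa8 are low at 24 h, Hspa1b and Hsph1 are high at 24 h, and Hspb1 has 1 high control library.

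The comparison of 72 h of DPI with controls asked which differences were present after the longer exposure. Hspa8 was lower and no other member passed the test. Thus 0 of 10 members rose and 1 fell, beside 4.73% of all tested genes that rose and 3.83% that fell (8.56% in either direction). At an unadjusted p under 0.05 in edgeR, 0 members were higher and 3 were lower, beside 11.4% and 11.1% of all genes (22.4% in either direction). DESeq2 and limma voom also called 0 members higher. Over all genes, 1206 passed here, 1965 once control replicate 2 was left out. Leaving out DPI 72 h replicate 1, 2 or 3 gave 782, 736 or 801 genes. The members' median log2 change was -0.06, beside -0.01 over all genes, and their median size was 0.16, beside 0.15. The groups did not overlap for 0 members that were higher and 4 that were lower (Hspa8, Hsp90aa1, Hsph1 and Hspb8), beside 13.9% and 13.2% of all genes (27.1% in either direction).

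Hspa8 had 3585, 3699.66 and 3559 CPM at 72 h, against 4199, 4463 and 4292 CPM in controls. All 3 libraries at 72 h were below the lowest control. It fell by 16.3% (log2 change -0.26, SE 0.04, adjusted p = 0.00212 by edgeR, 95% interval 0.787-fold to 0.890-fold). Hsp90aa1 had 1815, 1844 and 1860.2 CPM at 72 h, against 1977, 2198 and 2034 CPM in controls. Its log2 change of -0.17 did not pass (adjusted p = 0.0583 by edgeR, 95% interval 0.825-fold to 0.958-fold). It passed without control replicate 1 (log2 change -0.20, adjusted p = 0.0438) and without control replicate 2 (log2 change -0.12, adjusted p = 0.0102).

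Hspa1b had 44.3, 48.9 and 48.8 CPM at 72 h, against 47.4, 49.2 and 51.5 CPM in controls. The ranges overlapped, and the log2 change of -0.06 (adjusted p = 0.672 by edgeR) had a 95% interval from 0.860-fold to 1.07-fold. Hspa1a had 53, 23 and 40 counts at 72 h, against 20, 46 and 34 counts in controls. The ranges overlapped in part, and at this depth the 95% interval ran from 0.706-fold to 2.10-fold. Hsph1 had 267, 264 and 256 CPM at 72 h, against 275, 270.0 and 279 CPM in controls. These groups lay side by side without overlap, and the log2 change of -0.07 did not pass (adjusted p = 0.505 by edgeR). Dnajb1, at 95.5, 95.6 and 90.9 CPM against 93.0, 98.4 and 95.5 CPM in controls, had a log2 change of -0.02 with an interval from 0.903-fold to 1.07-fold. Bag3, at 48.9, 44.1 and 44.1 CPM against 43.3, 44.7 and 43.5 CPM in controls, had a log2 change of 0.06 with an interval from 0.928-fold to 1.17-fold.

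Of the small heat shock genes, Cryab had 6.80, 6.49 and 6.13 CPM at 72 h, against 4.64, 7.06 and 5.69 CPM in controls. The 72 h libraries lay inside the control range. Its log2 change was 0.16 (SE 0.21, adjusted p = 0.723 by edgeR, 95% interval 0.811-fold to 1.53-fold). Hspb8 had 96.7, 90.3 and 87.7 CPM at 72 h, against 101.6, 107.5 and 101.0 CPM in controls. Its log2 change of -0.17 did not pass (adjusted p = 0.124 by edgeR, 95% interval 0.804-fold to 0.975-fold). Hspb1 had 6.38, 4.94 and 5.81 CPM at 72 h, against 4.46, 13.2 and 5.95 CPM in controls. Its log2 change of -0.47 did not pass (adjusted p = 0.496 by edgeR) and turned to 0.14 without control replicate 2.

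The direct comparison of 72 h with 24 h of DPI asked whether the times differed from each other. Cryab and Hspa8 were higher at 72 h, and Hspa1b and Hsph1 were lower. Thus 2 of 10 members rose and 2 fell, beside 10.1% of all tested genes that rose and 11.2% that fell (21.3% in either direction). Over all genes, 3001 passed, 4729 once control replicate 2 was left out and 1953 once DPI 24 h replicate 3 was. The members' median log2 change was -0.10, beside 0.0019 over all genes, and their median size was 0.13, beside 0.20. The groups did not overlap for 2 members that were higher and 4 that were lower, beside 22.5% and 23.7% of all genes (46.2% in either direction).

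Cryab averaged 6.47 ± 0.337 CPM at 72 h and 2.28 ± 0.537 CPM at 24 h (SD, n = 3 each), and no library overlapped. This was 2.83-fold higher (log2 change 1.50, SE 0.22, adjusted p = 0.000742 by edgeR, 95% interval 2.02-fold to 3.98-fold). Of all tested genes, 2.69% had a larger change in size. Hspa1b averaged 47.3 ± 2.62 CPM at 72 h and 61.2 ± 3.38 CPM at 24 h (SD, n = 3 each), a log2 change of -0.37 (SE 0.07, adjusted p = 0.00342 by edgeR). Hsph1 averaged 263 ± 5.58 CPM at 72 h and 319 ± 1.55 CPM at 24 h (SD, n = 3 each), a log2 change of -0.28 (SE 0.05, adjusted p = 0.00259 by edgeR). These 3 calls held with each library left out in turn.

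Hspa8 averaged 3615 ± 74.8 CPM at 72 h and 3275 ± 16.6 CPM at 24 h (SD, n = 3 each), a log2 change of 0.14 (SE 0.04, adjusted p = 0.0273 by edgeR). The call was lost without DPI 72 h replicate 1 (adjusted p = 0.0542), replicate 2 (0.106) or replicate 3 (0.0633) and without DPI 24 h replicate 1 (0.0907), replicate 2 (0.0787) or replicate 3 (0.0854), and the log2 change stayed between 0.13 and 0.15. Hspb8 averaged 91.6 ± 4.64 CPM at 72 h and 104.4 ± 4.61 CPM at 24 h (SD, n = 3 each). Its log2 change of -0.19 did not pass (adjusted p = 0.0557 by edgeR) and passed without control replicate 2 (0.0116). Hsp90aa1 averaged 1839.8 ± 23.0 CPM at 72 h and 1844 ± 21.4 CPM at 24 h (SD, n = 3 each), a log2 change of -0.0031 with a 95% interval from 0.926-fold to 1.08-fold. Hspa1a, Dnajb1, Hspb1 and Bag3 had log2 changes from -0.12 to -0.04, with adjusted p of at least 0.238 by edgeR.

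**Figure D3:**
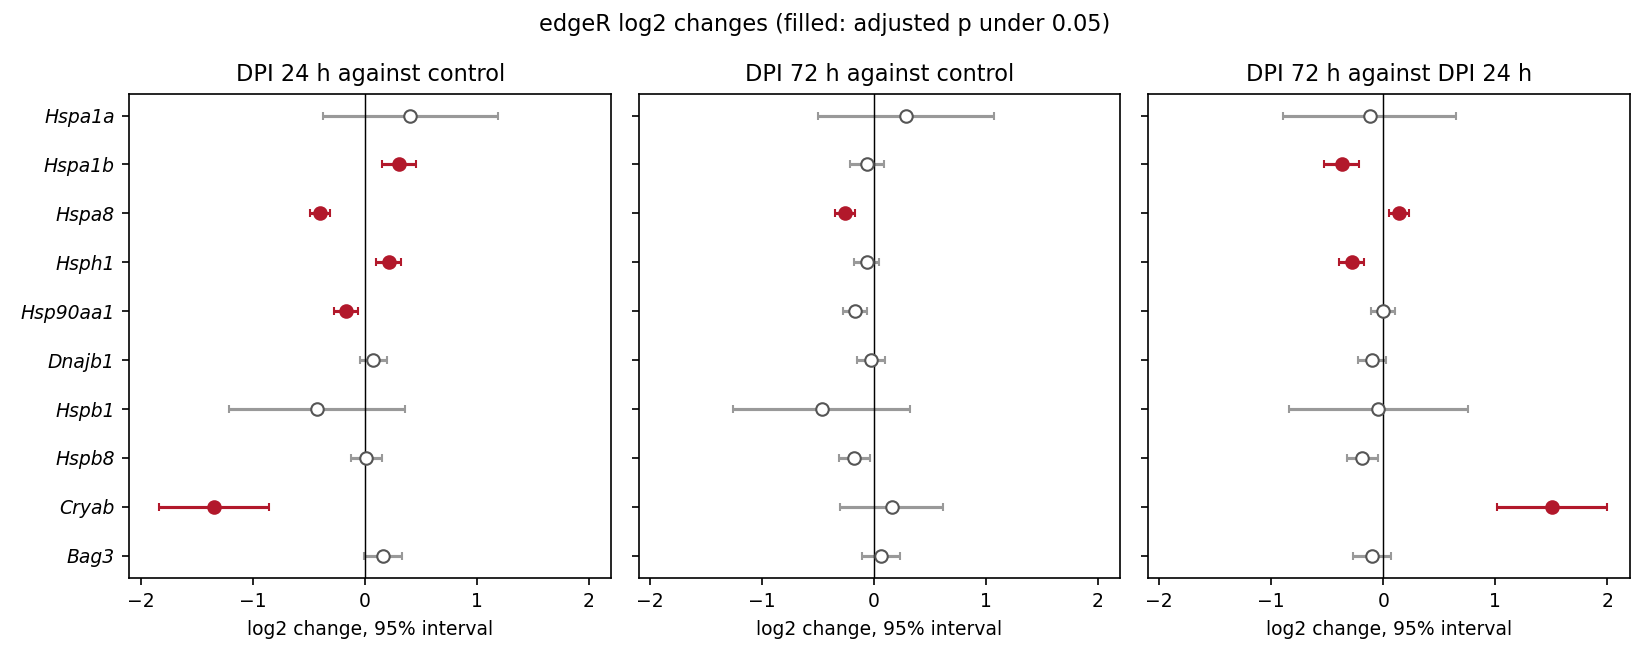
Log2 change of each gene with its 95% interval from the edgeR fit, in 1 panel for each of the 3 comparisons, with filled points where the adjusted p was under 0.05. Cryab lies at -1.35 for 24 h against control, at 0.16 for 72 h against control and at 1.50 for 72 h against 24 h. The points of all other members lie from -0.47 to 0.41.

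Because Hspa8 was lower while Hspa1b was higher at 24 h, the 2 HSP70 genes were also set against each other within each library, per kb of merged exon. The percentages depend on those lengths, and the fold between groups does not. Hspa1b stood at 2.87 ± 0.165% of the Hspa8 level at 24 h, against 1.755 ± 0.0771% in controls (SD, n = 3 each), which is 1.63 times as much. At 72 h it stood at 2.01 ± 0.105%, against 1.755 ± 0.0771% in controls (SD, n = 3 each). Hsph1 stood at 5.77 ± 0.00252% of the Hspa8 level at 24 h, against 3.77 ± 0.165% in controls (SD, n = 3 each), and both ratios share the Hspa8 denominator. All 10 members together took 0.573 ± 0.00362% of the counts at 24 h and 0.593 ± 0.00569% at 72 h, against 0.707 ± 0.0259% in controls (SD, n = 3 each). Hsp90aa1 stood at 0.426 ± 0.0012 of the level of its constitutive paralogue Hsp90ab1 at 24 h and at 0.389 ± 0.0138 at 72 h, against 0.417 ± 0.00978 in controls (SD, n = 3 each). None of these groups overlapped. The shares and the ratios to Hspa8 are given as a description, with no test, since their direction follows from the changes above. For the ratio to Hsp90ab1, an exact two-sided permutation test of 3 libraries against 3 cannot go below p = 0.1, and each of the 3 comparisons gave p = 0.1, with an adjusted p of 0.1.

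For each member, the genes with the most similar course over the 9 libraries were taken by the root mean square difference of log2 CPM after each gene was centred on its own mean. These genes were chosen for their pattern, so their values are a description. For Cryab, which spread by 0.69 around its own mean on this scale, the likest were Gadd45a (difference 0.17), Asns (0.18) and Psph (0.19). Gadd45a, a growth arrest gene, averaged 120.5 CPM in controls, 51.8 at 24 h and 136.8 at 72 h. Asns, asparagine synthetase, averaged 489 CPM in controls, 206 at 24 h and 498 at 72 h. Psph, the last enzyme of serine synthesis, averaged 119 CPM in controls, 48.4 at 24 h and 112 at 72 h. For Hspa1b, which spread by 0.17, the likest were Eif2ak3 (0.039), the kinase PERK of the endoplasmic reticulum, Hnrnph2 (0.052) and Hspa13 (0.054), an HSP70 relative. For Hsph1, which spread by 0.12, they were Canx (0.021), the lectin chaperone calnexin, Got2 (0.027) and Mgea5 (0.033). For Hspa8, which spread by 0.17, they were Lsm14a (0.032), Osbpl1a (0.046) and Gtpbp10 (0.047). Members themselves were left out of this search.

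**Figure D4:**
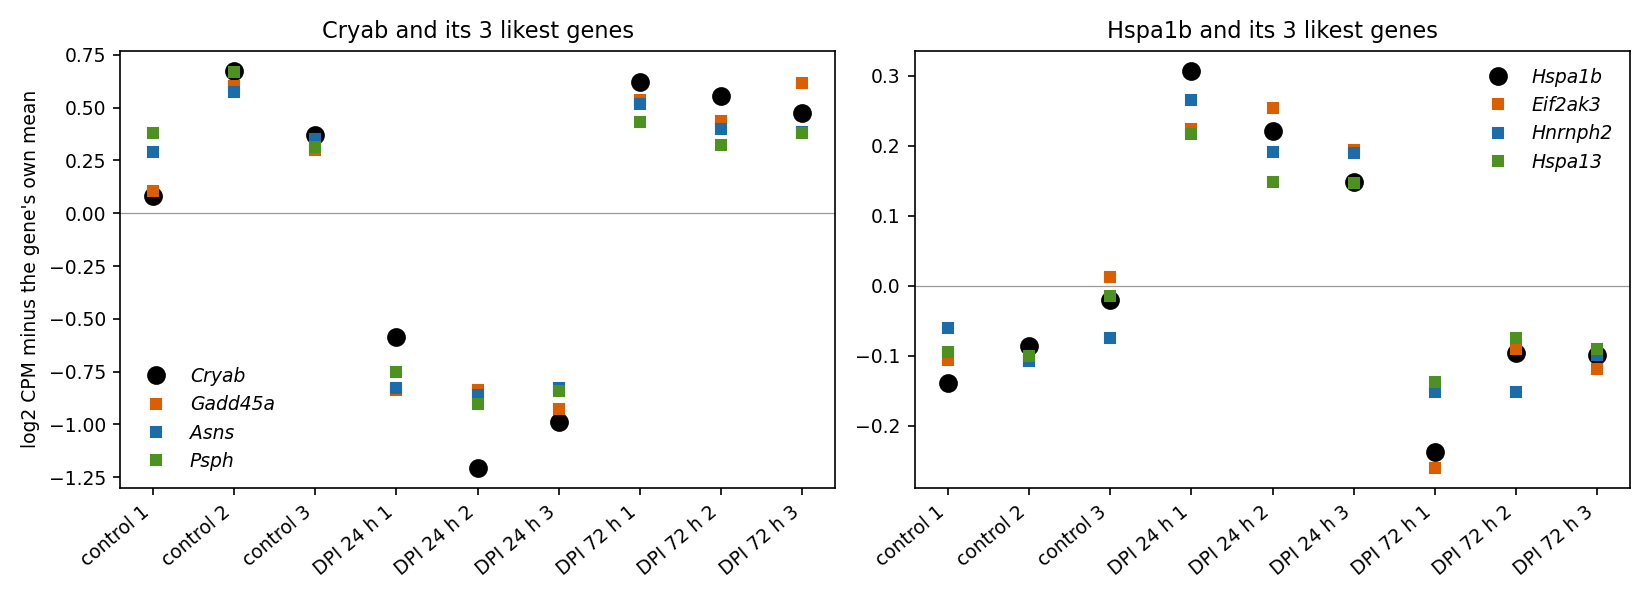
Log2 CPM minus the gene's own mean in each of the 9 libraries, for Cryab and Hspa1b (black points) and the 3 genes likest to each (coloured squares), with controls, DPI 24 h and DPI 72 h from left to right. Cryab and its likest genes are low in the 3 libraries at 24 h, and Hspa1b and its likest genes are high there.

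The members were set beside 81 other genes of the same network in 9 lists, of which 75 were tested. At 24 h of DPI, 6 of the 75 rose and 20 fell (8.0% and 26.7%, beside 12.4% and 12.3% of all genes), with a median log2 change of -0.08. Without control replicate 2 these counts were 12 and 17, beside 15.9% and 14.7% of all genes. With DPI 24 h replicates 1, 2 and 3 left out in turn, 13, 12 and 11 genes fell, and 3 rose without replicate 2 or replicate 3. Without DPI 72 h replicate 3, 13 fell. The calls over all genes at 24 h, in either direction, numbered 3478 in the main fit. They numbered 2473, 2388 and 2351 without DPI 24 h replicates 1, 2 and 3, and 3065 without DPI 72 h replicate 3. At 72 h against controls 1 rose and 3 fell (1.33% and 4.0%, beside 4.73% and 3.83%), and at 72 h against 24 h 5 rose and 5 fell (6.67% each, beside 10.1% and 11.2%). Without control replicate 2, 6 rose and 4 fell at 72 h against controls, beside 7.63% and 6.0% of all genes, and 20 rose and 8 fell at 72 h against 24 h, beside 15.7% and 17.1%. With other libraries left out at 72 h against controls, 2 rose without control replicate 1 or 3, 0 rose without any 1 of the DPI 72 h replicates, and 1 fell without DPI 24 h replicate 3 or DPI 72 h replicate 2 or 3. Over all genes, 1206 were called at 72 h in the main fit. There were 1121 and 915 without control replicates 1 and 3, and 937 without DPI 24 h replicate 3. Leaving out DPI 72 h replicates 1, 2 and 3 gave 782, 736 and 801.

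Hsf1 itself averaged 73.3 ± 1.24 CPM at 24 h, against 69.8 ± 5.51 CPM in controls (SD, n = 3 each), and did not pass (log2 change 0.07, adjusted p = 0.487 by edgeR). Hsf2, a related factor, had a log2 change of 0.02 at 24 h (adjusted p = 0.837 by edgeR). Of the heat shock factors and their regulators, 4 of 6 genes were tested and none passed at 24 h. Against controls at 72 h, Hsf1 had a log2 change of 0.02 (adjusted p = 0.926 by edgeR) and Hsf2 of -0.11 (adjusted p = 0.335 by edgeR).

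The counts of each list at 24 h stand beside 12.4% of all tested genes that rose and 12.3% that fell. The other HSP70 and HSP110 genes had 2 that rose at 24 h and 0 that fell among 8. Hspa4, another HSP110, averaged 583 CPM at 24 h, against 481 CPM in controls (log2 change 0.28, adjusted p = 0.00436 by edgeR). Hspa13 averaged 126 CPM at 24 h, against 107 CPM in controls (log2 change 0.24, adjusted p = 0.00908 by edgeR). Among 15 genes for HSP90 and its cochaperones, 1 rose and 5 fell. Hsp90ab1, the constitutive HSP90, fell to 3298 CPM at 24 h, against 3782 CPM in controls (log2 change -0.20, adjusted p = 0.00688 by edgeR, and 0.0787 with no filter on low counts). Fkbp5, an immunophilin of steroid receptor complexes, averaged 53.8 CPM at 24 h, against 70.7 CPM in controls (log2 change -0.39, adjusted p = 0.0024 by edgeR), and Aarsd1 had a log2 change of -0.69 (adjusted p = 0.00529 by edgeR). The list median was -0.20.

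Of the other small heat shock genes, 3 of 7 were tested and 2 fell at 24 h. Hspb6 averaged 16.7 CPM at 24 h, against 21.8 CPM in controls (log2 change -0.39, adjusted p = 0.00804 by edgeR). Hspb11, a cilium transport protein in spite of its name, averaged 12.2 CPM at 24 h, against 24.1 CPM in controls (log2 change -0.99, adjusted p = 0.00137 by edgeR). Of 14 genes for the TRiC chaperonin and prefoldin, which fold actin and tubulin, 0 rose and 5 fell. They included Cct2 (log2 change -0.31, adjusted p = 0.0108 by edgeR) and Cct4 (log2 change -0.36, adjusted p = 0.00415 by edgeR). Control replicate 2 was the highest library for Cct2 and for Cct4, at 878 and 573 CPM. The other controls had 730 and 734 CPM of Cct2 and 490 and 489 CPM of Cct4. Of 10 other J-domain genes, 1 rose and 3 fell, with Dnaja4 at 13.5 CPM at 24 h, against 20.3 CPM in controls (log2 change -0.59, adjusted p = 0.0119 by edgeR). Of 9 genes for nucleotide exchange and regulation of HSP70, 0 rose and 1 fell.

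Among 7 partners of Bag3 and Hspb8 in selective autophagy, 1 rose and 2 fell at 24 h. Sqstm1, the autophagy receptor p62, fell to 687 CPM at 24 h, against 963 CPM in controls (log2 change -0.49, adjusted p = 0.000425 by edgeR), and to 556 CPM at 72 h, against 963 CPM in controls (log2 change -0.79, adjusted p = 3.24e-05 by edgeR). Of 6 targets of HSF1 in other compartments, 1 rose and 3 fell. Hspd1, the mitochondrial chaperonin, averaged 665 CPM at 24 h, against 848 CPM in controls (log2 change -0.35, adjusted p = 0.00108 by edgeR), and Hmox1, heme oxygenase, had a log2 change of -0.36 (adjusted p = 0.0038 by edgeR). The genes named with values from Hspa4 to Hmox1 kept their 24 h call with each library left out. Dnajb4, Stub1 and Vbp1 were called lower at 24 h, and Dnajc7 and Unc45a higher. All of them lost the call without 2 to 8 of the 9 libraries, with adjusted p from 0.0504 to 0.153 by edgeR where it was lost.

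At 72 h against controls, Sqstm1 kept its call with each library left out. Vbp1 (log2 change -0.32, adjusted p = 0.038 by edgeR) kept its call only without control replicate 1 or control replicate 2, with adjusted p from 0.0566 to 0.141 in the other 7. Hsf4 (log2 change -0.65, adjusted p = 0.0405 by edgeR) lost its call without control replicate 2 (0.0682), control replicate 3 (0.0801), DPI 24 h replicate 3 (0.0689), DPI 72 h replicate 2 (0.151) or DPI 72 h replicate 3 (0.114). At 72 h against 24 h, Fkbp5 averaged 83.9 CPM at 72 h and 53.8 CPM at 24 h (log2 change 0.64, adjusted p = 9.98e-05 by edgeR). Hspa13 was lower at 72 h than at 24 h (log2 change -0.27, adjusted p = 0.00538 by edgeR), as Hspa1b and Hsph1 were. Hspb6 (log2 change 0.41), Hspb11 (0.70) and Hspd1 (0.25) were also higher at 72 h than at 24 h, and St13 (-0.27) and Sqstm1 (-0.31) were lower, with adjusted p of at most 0.011 by edgeR. Serpinh1, the collagen chaperone, was higher (log2 change 0.22, adjusted p = 0.0247 by edgeR) and Unc45a lower (-0.24, adjusted p = 0.0317), and each lost its call without 5 of the 9 libraries (adjusted p up to 0.124). Hsp90ab1 averaged 3612 CPM at 72 h and 3298 CPM at 24 h, and its log2 change of 0.13 did not pass (adjusted p = 0.0521 by edgeR) but passed without control replicate 2 (0.000736).

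**Figure D5:**
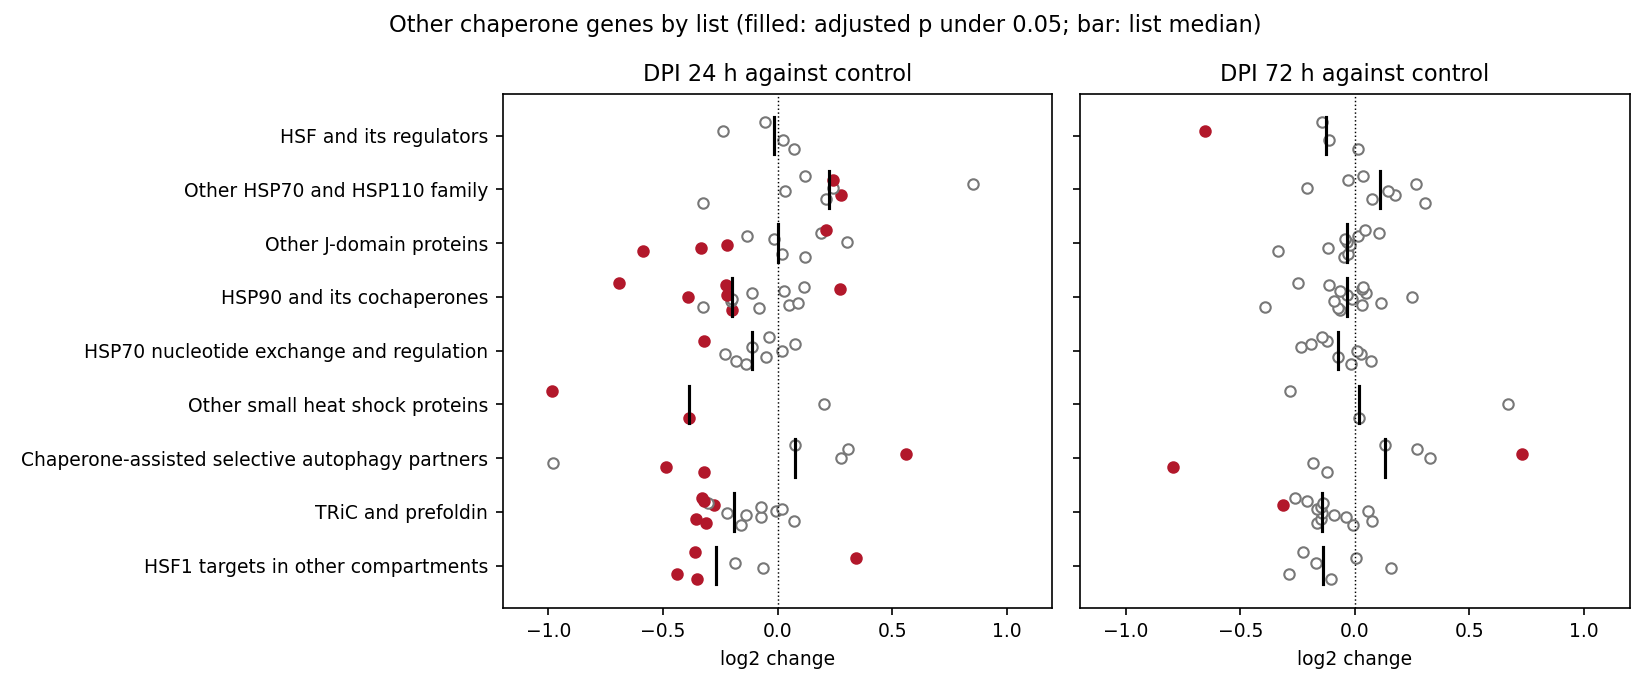
Log2 change of each tested gene of the 9 lists, 1 row per list and 1 panel per comparison, with filled points where the adjusted p was under 0.05 and a bar at the list median. At 24 h of DPI against control most filled points lie left of 0, and at 72 h against control few points are filled.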

How the data were processed

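Total RNA was sequenced from 9 libraries of mouse adult fibroblasts. The authors deposited whole-number counts per Ensembl gene, and a second table named as normalized whose 159498 values all equalled those counts, so only the raw counts were used. Of tools, the submitters' processing notes list STAR, RSEM, Trim Galore, cutadapt, edgeR and limma, with the build GRCm38 and no versions or roles. No source used here states the annotation release or strand setting, and symbols, lengths and positions came from a GENCODE annotation of GRCm38 (105 IDs had no symbol).

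Genes were filtered by filterByExpr (minimum count 10), scaled by TMM (factors 0.984 to 1.02) and fitted over all 9 libraries with 1 mean per group in edgeR 4.0.16 (R 4.3.3, quasi-likelihood, two-sided), with Benjamini-Hochberg adjustment over 14088 genes and a threshold of 0.05. Standard errors were taken as the size of the log2 change over the square root of F, and intervals are at 95%. Alternatives were other scalings, no filter, DESeq2 1.42.0, limma 3.58.1 with voom, fitting only 2 groups, a replicate block, a stricter fold rule and each library left out. No library was a copy of another in its group: chi-square over degrees of freedom was 3.68 or more for every such comparison.

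The members and the 9 lists were chosen with earlier results of these data known. All members were named, and from the lists Hsf1, Hsf2, Hsp90ab1 and, in each list and comparison, up to 3 called genes of smallest p. For likeness, the 3 likest genes with a mean of at least 5 CPM were taken. Some named genes are given only by their call, and a few are not reported here.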

Additional observations from a re-analysis of the deposited data

Results flagged for a closer look

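In the direct test of 72 h against 24 h of DPI, 4 heat shock genes differed between the times, so their changes from the shared controls differed too. The log2 difference was 1.50 for Cryab, 0.14 for Hspa8, -0.37 for Hspa1b and -0.28 for Hsph1 (adjusted p = 0.000742, 0.0273, 0.00342 and 0.00259 by edgeR). The Hspa8 difference is the smallest of these, and its call was lost without any 1 of the 6 treated libraries, with adjusted p from 0.0542 to 0.106. Groups of 3 are too small for a test of single outlying libraries.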

How the results depend on the processing

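Of 483 member values recomputed under alternatives, 15 turned sign, none of them called in either setting and none larger than 0.222 on the log2 scale. The calls of Hspa1b, Hspa8 and Cryab at 24 h, of Hspa8 at 72 h and of Hspa1b, Hsph1 and Cryab at 72 h against 24 h held under every alternative, the fold rule apart, which asks for a log2 change of at least 0.5. Under that rule, at 24 h 0 members rose and 1 fell, with 1604 genes called and 1 and 3 other chaperone genes higher and lower. At 72 h 0 members fell and 624 genes were called. At 72 h against 24 h 1 member rose and 0 fell, with 1449 genes called and 2 and 0 other chaperone genes higher and lower. Scaling moved the median of all genes by less than 0.05. With no filter, 1 member rose at 24 h (Hsph1 at adjusted p = 0.0511) and 1 at 72 h against 24 h, where limma voom also gave 1 (Hspa8 at 0.303 and 0.06). At 72 h 2 members fell with library totals alone and with DESeq2 (Hsp90aa1 at 0.0207 and 0.024). Fitting only 2 groups called 774 genes at 72 h and 4660 at 72 h against 24 h. Hsp90aa1 lost its 24 h call with no filter (0.181) and with only 2 groups (0.0804). Hspb8 passed at 72 h against 24 h with library totals alone (0.0419), DESeq2 (0.0497) and only 2 groups (0.0174).

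The alternatives for the counts of other chaperone genes were added after seeing the data. At 72 h, 2 were higher by RLE and by limma voom, 3 with no filter and by DESeq2, and 0 with only 2 groups. In the same comparison 6 were lower with library totals alone and by DESeq2, 5 with no filter, and 1 with the replicate block and with only 2 groups. At 72 h against 24 h DESeq2 gave 9 higher, and only 2 groups gave 20 higher and 8 lower. Over all genes, 1220 were called at 72 h by RLE, 1181 by limma voom, 1702 with no filter and 1463 by DESeq2. Library totals alone gave 1259 and the replicate block 911, and DESeq2 gave 3010 at 72 h against 24 h.

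Leaving out each library in turn gave 2351 to 4419 genes called at 24 h, 736 to 1965 at 72 h and 1953 to 4729 at 72 h against 24 h. Members that fell numbered 2 to 3 at 24 h, 1 to 2 at 72 h and 2 to 3 at 72 h against 24 h, where 1 to 2 rose. Other chaperone genes numbered 3 to 12 higher and 11 to 23 lower at 24 h, 0 to 6 higher and 1 to 4 lower at 72 h, and 4 to 20 higher and 4 to 8 lower at 72 h against 24 h.

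The replicate numbers share no stated pairing. Same-numbered libraries had correlations of deviations from -0.0925 to 0.00265, and in 0 of 18 choices did a library correlate best with its own number. With the replicate block 3000 genes were called at 24 h, 911 at 72 h and 2533 at 72 h against 24 h, and among members only Hsp90aa1 at 24 h changed its call (0.0513).

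Low counts limit Hspa1a, Cryab and Hspb1, and Hspa1a, Hspa1b, Hspa8, Hsp90aa1 and Hspb1 share from 38.6% to 62.3% of their 50-base windows with other genes. With Hspa1a and Hspa1b summed, the log2 change at 24 h was 0.31 and still passed.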
